A study of Mus musculus with 6 samples.

Results

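The NK cell receptors described here are 10 genes, Ncr1, Klrk1, Klrb1c, Klrd1, Klrc1, Klre1, Klra7, Klrg1, Itga2 and Itgam, out of 31053 genes in the matrix, chosen by name as activating, inhibitory and maturation receptors, and all 10 were found by symbol. They were followed in natural killer (NK) cells, taken as cells with a transcript of at least 2 of the cytotoxic genes Gzma, Nkg7 and Prf1. These were 186 of 38751 cells that passed the filters of the study (0.480%, exact binomial 95% interval 0.414 to 0.554%). Single-cell RNA sequencing had been performed on CD45+ leukocytes sorted from the right, tumor-bearing hemisphere of female SCID mice that carried intracranial grafts of U87, an established human glioma line. In 3 mice the implanted U87 cells expressed IL-33 and the brain was taken 3 weeks after implantation. In the other 3 mice the U87 cells carried the pcDNA 3.1 empty vector and the brain was taken at 6 weeks, which leaves growth time and IL-33 inseparable by design: their parts cannot be told apart. The labels give an age of 6 to 8 weeks for all 6 mice. If this is the age at implantation, age at collection also differed between the groups, together with growth time. The methods name the strain as CB17 SCID, which lacks T and B lymphocytes but keeps NK cells. Each library has its own barcode suffix (1 to 6), and neither the labels of the samples nor the deposited files say which group a suffix belongs to. No other source was used to assign one, and the matrix was read as 1 pooled sample, with no comparison of IL-33 with pcDNA and no p-values. Levels are counts per 1000000 (CPM): unique molecular identifiers (UMIs, 1 per captured transcript) of a gene, summed over a set of cells and divided by that set's UMIs. Poisson intervals of CPM and binomial (Clopper-Pearson) intervals of shares are at 95%, and both cover counting error only.

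NK cells do not rearrange antigen receptors. They weigh signals from germline-encoded activating receptors, such as NKp46 (Ncr1) and NKG2D (Klrk1), against inhibitory receptors that bind MHC class I on healthy cells, such as the NKG2A and CD94 pair (Klrc1 and Klrd1) and Ly49 proteins (the Klra genes), and a cell carries only some of the inhibitory receptors. As mouse NK cells mature they gain the integrin CD11b (Itgam), then lose Cd27 and finally gain KLRG1 (Klrg1). Most of these genes lie in the NK gene complex on chromosome 6.

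On GRCm38 (GENCODE M21, matched by Ensembl ID), 6 of the 10 genes lay within 1.46 Mb of chromosome 6, from Klrb1c (start 128778485) to Klra7 (end 130233322), with Klre1, Klrd1, Klrk1 and Klrc1 between them. Klrg1 lay apart on the same chromosome (122270596 to 122282882). Ncr1 (4337724 to 4345164) and Itgam (128062640 to 128118491) are on chromosome 7 and Itga2 (114833081 to 114932100) on chromosome 13. RefSeq promoter sequences of GRCm38.p6 were found for 8 of the 10 genes, all but Klrd1 and Klrg1. The 250 bases before the start are shown for the activating receptors Ncr1 and Klrk1, for the inhibitory receptors Klrc1 and Klra7 of the mix described here, and for Itgam, the member shared with myeloid cells. Capitals mark the letters TGTGGT or ACCACA, the core bound by RUNX factors, and GAGGAAG or CTTCCTC, an ETS core, each searched on both strands. All 5 start at the same base in RefSeq and GENCODE.
Ncr1, chr7:4337474-4337723, plus strand: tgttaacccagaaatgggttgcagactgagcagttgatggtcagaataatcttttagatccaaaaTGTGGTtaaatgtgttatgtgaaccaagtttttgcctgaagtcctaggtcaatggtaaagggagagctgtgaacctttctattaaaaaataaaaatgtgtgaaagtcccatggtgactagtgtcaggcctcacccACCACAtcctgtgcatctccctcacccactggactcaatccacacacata
Klrk1, chr6:129623865-129624114, minus strand: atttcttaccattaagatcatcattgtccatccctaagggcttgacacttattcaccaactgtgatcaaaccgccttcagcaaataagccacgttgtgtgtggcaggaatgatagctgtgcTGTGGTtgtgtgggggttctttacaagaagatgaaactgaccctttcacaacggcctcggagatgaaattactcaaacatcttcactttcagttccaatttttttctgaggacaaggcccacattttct
Klrc1, chr6:129678974-129679223, minus strand: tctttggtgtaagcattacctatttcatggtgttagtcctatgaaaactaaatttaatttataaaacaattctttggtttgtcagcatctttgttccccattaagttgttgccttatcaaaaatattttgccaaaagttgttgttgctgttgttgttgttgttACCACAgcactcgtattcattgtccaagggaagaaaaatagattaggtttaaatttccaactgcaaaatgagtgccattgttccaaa
Klra7, chr6:130233323-130233572, minus strand: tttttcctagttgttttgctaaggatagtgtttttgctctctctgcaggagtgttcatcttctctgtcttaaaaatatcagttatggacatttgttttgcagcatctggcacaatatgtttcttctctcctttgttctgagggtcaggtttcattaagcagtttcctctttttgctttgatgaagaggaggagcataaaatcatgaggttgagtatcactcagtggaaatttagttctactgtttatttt
Itgam, chr7:128062390-128062639, plus strand: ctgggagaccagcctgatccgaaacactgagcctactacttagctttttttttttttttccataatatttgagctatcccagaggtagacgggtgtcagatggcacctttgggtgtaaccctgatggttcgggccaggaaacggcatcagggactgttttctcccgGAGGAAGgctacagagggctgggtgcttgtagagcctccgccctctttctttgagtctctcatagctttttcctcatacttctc
The RUNX core was present before the start of 5 of the 8 genes (2 copies in Ncr1, and 1 each in Klrk1, Klrb1c, Klrc1 and Klre1), against 14.0% of 32851 promoters of the same length. The ETS core was found in 2 of 8 (Klrb1c and Itgam), against 10.6% of all promoters. A T-box core (GGTGTGA or TCACACC, which can overlap the RUNX letters) was found in 0 of 8, against 3.33%. For Klrb1c and Klre1 the RefSeq start used lay 574 and 308 bases from the GENCODE start, so their matches depend on that choice. These are matches of letters, not measured binding sites.

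Of the 186 NK-gated cells, 132 had all 3 gate genes and 54 had 2, which the gate itself fixed. The NK label was checked on markers that the gate did not use. The T cell genes Cd3e, Cd4, Cd8a and Cd8b1 were at 0 UMIs (limit for a count of 0, 3 UMIs), while Cd3g was at 32.5 CPM in 7 cells and transcripts of T cell receptor constant regions were present (Trbc1 342 CPM, Trdc 113 CPM). All 4 T cell genes that could be tested (Cd3g, Trbc1, Trbc2 and Trdc) were at least 4 times higher than in microglia-gated cells. Of 5 B cell genes 4 had no UMI. The monocyte genes Ly6c2 (219 CPM), Ccr2 (220) and Plac8 (54.7) were also at least 4 times higher, 3 of 3 tested. Of 7 genes of type 1 innate lymphoid cells tested, 3 were, against 5.96% of all genes. These were Itga1 (15.4 CPM), Cxcr6 (18.8) and Eomes (169). Eomes was on that list as a gene of low level, so its call does not count toward that type. A gate other than NK and microglia was passed by 20 of the 186 cells. Of 7 ILC2 genes, Il1rl1, Il13, Il5 and Areg had no UMI, while both genes that could be tested, the transcription factors Gata3 (73.5 CPM against 0.428 in microglia-gated cells) and Rora (47.8 against 6.16 CPM), were at least 4 times higher. The cells were spread unevenly, with 8, 21, 3, 56, 6 and 92 in suffixes 1 to 6 (0.0927 to 1.58% of a suffix), so 148 of 186 came from suffixes 4 and 6. Many carried microglial transcripts: 85 also passed the microglia gate (at least 3 of Tmem119, Gpr34, Olfml3, P2ry12, Cx3cr1 and Selplg), and 76 had over 3% of their UMIs on 6 microglial genes (Tmem119, P2ry12, Cst3, C1qa, C1qb and C1qc), with a median of 4854 UMIs against 1581 in the 97 cells with at most 1%. No doublet caller was run, and the CPM of each member are therefore given for both sets. Values of other genes are of all NK-gated cells unless stated, and they can differ in the cells with at most 1%. Of all 29579 barcode sequences, 3890 occurred under more than 1 suffix, carried by 35.9% of microglia-gated barcodes but by 11 of 186 NK-gated ones. Leaving these 11 out moved no member's level outside its interval.

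In NK-gated cells the activating receptor Ncr1 led at 1194 CPM (1107 to 1286) and was seen in 168 of 186 cells. CD94 (Klrd1), the shared partner chain of the NKG2 receptors, followed at 888 CPM (814 to 968) in 166 cells. The intervals of these genes did not overlap with each other or with the next gene. NKG2D (Klrk1), which binds stress-induced ligands, stood at 444 CPM (392 to 502) in 131 cells.

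A middle group held inhibitory NKG2A (Klrc1) at 308 CPM (264 to 356), CD11b (Itgam) at 287 (245 to 334), NK1.1 (Klrb1c, an activating lectin-like receptor) at 255 (215 to 299) and Klre1, a lectin-like receptor that pairs with the KLRI chains, at 248 (209 to 292). The intervals of these 4 neighbours overlapped. The inhibitory Ly49 gene Klra7 and Klrg1, each with 75 UMIs, were at 128 CPM (101 to 161), below the middle group. This order is that of all NK-gated cells: in the 97 with little microglial RNA, Itgam was at 117 CPM, below Klrg1 (326) and Klra7 (252). The integrin chain CD49b (Itga2), the target of the antibody DX5 that is used to define mouse NK cells, came last at 35.9 CPM (22.2 to 54.8), in 19 of 186 cells, and was at 22.0 CPM without suffix 6. Since a transcript is tagged once at its 3′ end, CPM were not divided by gene length. How well each 3′ end is captured was not tested.

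**Figure D1:**
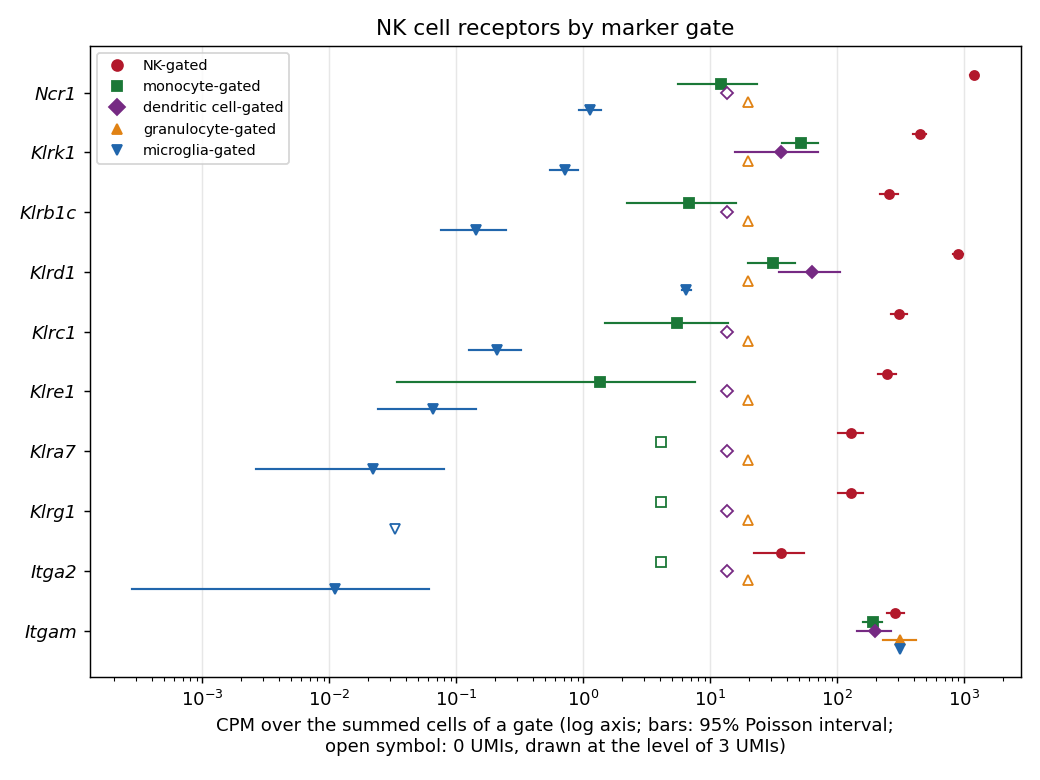
Level of each receptor gene (rows) in CPM on a log axis, over the summed cells of 5 gates, with 95% Poisson intervals; open symbols mark 0 UMIs and are drawn at the level of 3 UMIs. The 9 genes other than Itgam lay to the right in NK-gated cells, from 35.9 to 1194 CPM, and Itgam was at 190 to 314 CPM in all 5 gates.

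Against the 36246 microglia-gated cells, 9 of 10 genes were at least 4 times higher in NK-gated cells, a size reached by 5.96% of the 8399 genes of at least 10 CPM in either gate. All 9 were under 10 CPM in microglia-gated cells and so were tested only through their NK level. This largely fixed the call, so the count is a description of levels. The median log2 ratio of the 10 genes was 10.66, against 0.15 over all genes tested. The count was 9 also at 2 times and 10 times (15.2% and 4% of all genes). Over all NK-gated cells, no member was lower by 4, 2 or 10 times (0.762, 7.79 and 0.0714% of all genes). Itgam was the exception. It stood at 287 CPM in NK-gated and 314 CPM in microglia-gated cells (ratio 0.915, 0.782 to 1.07). In the 97 NK-gated cells of little microglial RNA, Itgam was at 117 CPM (70.4 to 183), under that microglial level. The rules for lower genes were not applied to those 97 cells. CD11b is also a marker of microglia. Klrg1 had no UMI in microglia-gated cells, so that it was at least 3890-fold higher in NK-gated cells. Klra7 had 2 UMIs and Itga2 had 1 UMI there, which gave ratios of 5836 (1560 to 49071) and 3268 (526 to 135144). The ratio was smallest for Klrd1 among the 9, 138 (122 to 155).

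Of the 9 genes other than Itgam, Klrd1 had the highest level in microglia-gated cells. These cells held 587 Klrd1 UMIs in 529 cells (6.44 CPM, 5.93 to 6.99), against 103 Ncr1 UMIs. Per 100 Ncr1 UMIs this was 570 for Klrd1 in microglia-gated cells and 74.4 in NK-gated cells. In 508 of the 529 cells Klrd1 was the only one of the 9 receptor genes detected. The level lay between 2.74 CPM (suffix 5, with 6 NK-gated cells) and 8.38 CPM (suffix 1, with 8) in each of the 6 suffixes. The source of the Klrd1 transcripts in microglia-gated cells was not tested. After each cell was thinned to 500 UMIs, 0.270% of microglia-gated and 41.4% of NK-gated cells had a Klrd1 UMI, and the unthinned shares were 1.46% and 89.2% at median depths of 2502 and 2494 UMIs.

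Monocyte-gated and dendritic cell-gated cells also held 2 of the receptors, from a source that was not tested. In 165 monocyte-gated cells (Ly6c2 and Ccr2 both present) Klrk1 stood at 51.5 CPM (36.5 to 70.7) in 20 cells and Klrd1 at 31.2 CPM (19.8 to 46.8) in 14 cells, with Ncr1 at 12.2 CPM in 2 cells. Of the 20 cells with Klrk1, 16 had no other receptor of the 9, and 3 had the NK gate gene Nkg7. In 43 dendritic cell-gated cells (at least 2 of Cd209a, Clec10a and Flt3) Klrd1 was at 63.1 CPM (34.5 to 106) and Klrk1 at 36.1 CPM (15.6 to 71.0), with no UMI of Ncr1 or of the other 6. The 42 granulocyte-gated cells had no UMI of any of the 9. Such zeros rest on few cells, and the limit for a count of 0 was 19.9 CPM in granulocytes and 13.5 CPM in dendritic cells, under the NK level of 9 and 9 genes respectively. Counted over genes, 9 of 10 members were at least 4 times higher in NK-gated than in monocyte-gated cells (8.84% of all genes), 8 against granulocyte-gated (7.39%) and 8 against dendritic cell-gated cells (7.36%). Members under 10 CPM in such a gate were tested only through their NK level, so the counts are descriptions. Besides Itgam, Itga2 fell short in these last gates, where its ratio is bounded by the limit for a count of 0.

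Most NK-gated cells carried several receptors at once. Of the 9 genes without Itgam, the median cell had 4 and the highest had 8, and 180 of 186 cells had at least 2. Of microglia-gated cells, 1.64% had at least 1 and 0.0717% had at least 2. Thinned to 500 UMIs, 83.3% of NK-gated cells (77.2 to 88.4) had at least 1 of the 9 genes, against 0.323% of microglia-gated, 5.45% of monocyte-gated and 0 of 42 granulocyte-gated cells. At that depth Ncr1 was seen in 44.6% of NK-gated cells and 0.0248% of microglia-gated cells, Klrc1 in 16.7 and 0.00552%, Klrg1 in 10.2% and in none, and Klra7 in 9.14% and in none. A count of 0 among the 36246 thinned microglia-gated cells has an exact upper bound of 0.0102%.

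**Figure D2:**
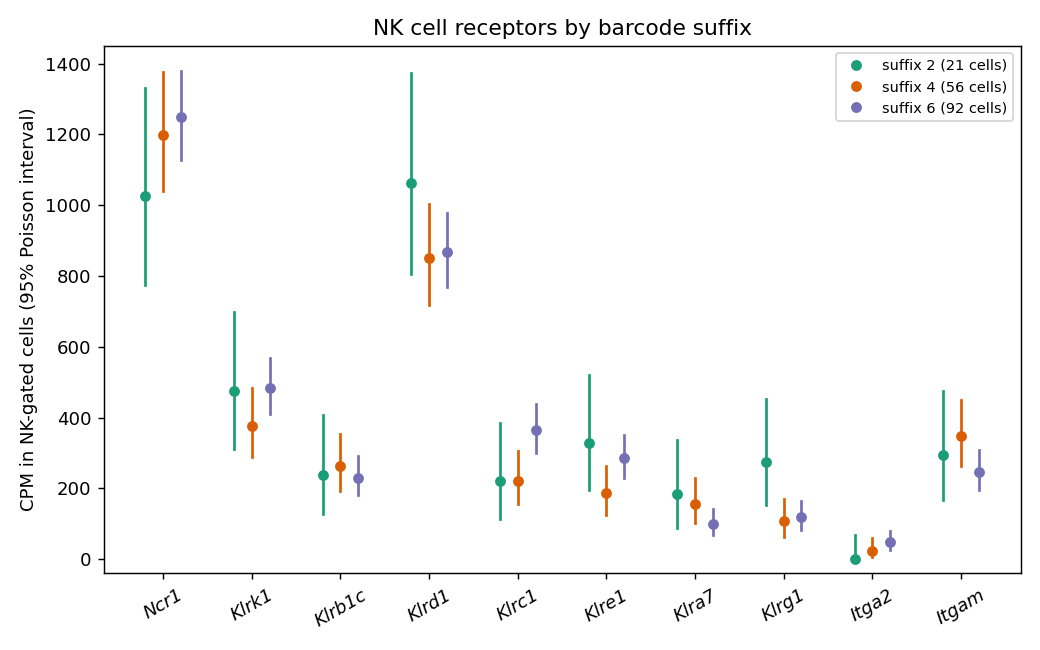
CPM of each receptor gene in NK-gated cells of the 3 suffixes with at least 20 such cells, with 95% Poisson intervals. Ncr1 and Klrd1 were the leading genes in all 3, and the intervals of each gene overlapped between the 3 suffixes.

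Values by library were as follows. Ncr1 was at 1026, 1199 and 1249 CPM in suffixes 2, 4 and 6, with 29, 7 and 17 UMIs in the few cells of suffixes 1, 3 and 5. Klrd1 was at 1062, 851 and 868 CPM, and it equalled or passed Ncr1 only in suffixes 2, 3 and 5. Within each gene the intervals overlapped between suffixes 2, 4 and 6. Klrk1 was at 476, 378 and 484 CPM, with no UMI in the 3 cells of suffix 3. Klrb1c was at 238, 264 and 231 CPM and Klre1 at 330, 186 and 285 CPM, the latter with no UMI in the 8 cells of suffix 1. Itgam was at 293, 348 and 247 CPM. For these 4 genes too the intervals overlapped, which does not show that the libraries were equal.

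Klrc1 stood at 220, 222 and 365 CPM in suffixes 2, 4 and 6, highest in suffix 6 (301 to 439), where its interval reached that of suffix 4 (156 to 306). Klrg1 was highest in suffix 2, at 275 CPM (154 to 453), against 108 (64.0 to 171) and 118 (83.4 to 163), and it was seen in 2, 10, 0, 12, 1 and 24 cells of suffixes 1 to 6. Klra7 was at 183, 156 and 99.3 CPM, with overlapping intervals. Itga2 was absent from suffixes 1, 2 and 3 and at 24.0 and 48.0 CPM in suffixes 4 and 6, again within overlapping intervals (0 UMIs in suffix 2 allow up to 67.6 CPM). Suffixes were not assigned to groups, so these are values side by side and not a comparison of IL-33 with pcDNA.

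Most receptor levels were lower in cells with more microglial RNA. In the 97 cells with at most 1% of UMIs on the 6 microglial genes, Ncr1 was at 2067 CPM (1852 to 2301), against 791 (703 to 886) in the 76 cells over 3%. The same held for Klrd1 (1784 against 477 CPM), Klrk1 (892 against 249 CPM), Klrc1 (554 against 196 CPM), Klre1 (486 against 153 CPM), Klrb1c (504 against 150 CPM), Klrg1 (326 against 45.6 CPM) and Klra7 (252 against 67.0 CPM), all with intervals that did not overlap. Itga2 was at 73.8 against 24.1 CPM, with overlapping intervals. The difference was not particular to receptors: the gate gene Gzma was at 14311 against 3895 CPM. Itgam moved the opposite way, 117 CPM (70.4 to 183) against 351 (294 to 417). The share of cells with Ncr1 differed less, 92.8 against 86.8%, and that with Itgam more, 18.6 against 72.4%. The part of microglial RNA in these levels, Itgam above all, was not tested.

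**Figure D3:**
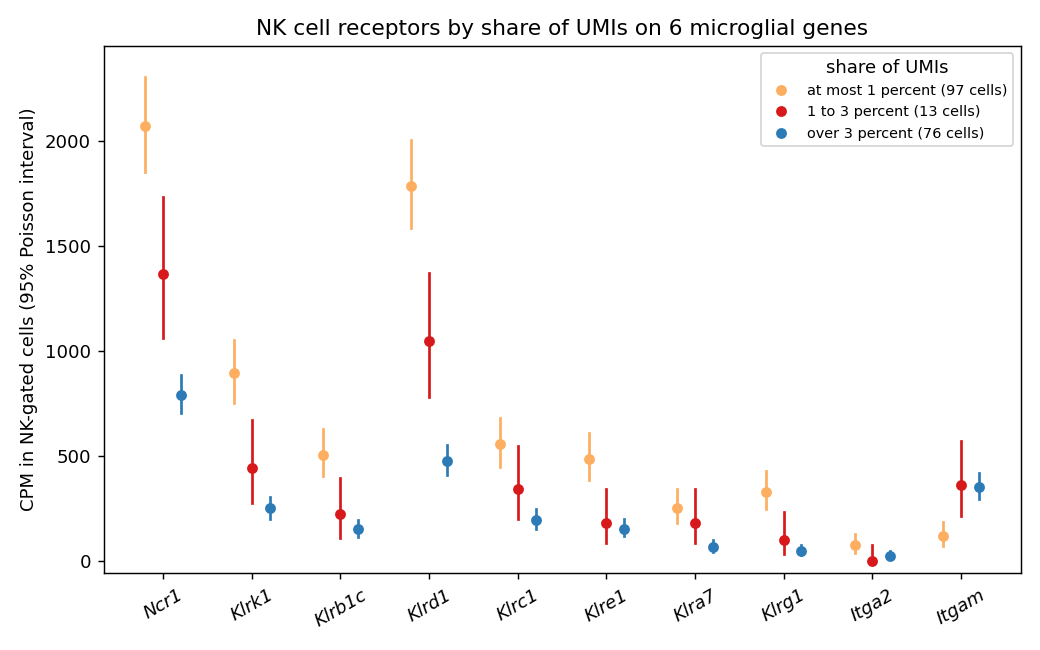
CPM of each receptor gene in NK-gated cells split by the share of their UMIs on 6 microglial genes, with 95% Poisson intervals. From the cells with at most 1% to those with over 3%, the 9 other genes were lower and Itgam was higher.

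Inhibitory receptors were detected in a mix of combinations. Of the 186 NK-gated cells, 50 had Klrc1 alone of Klrc1, Klrg1 and Klra7, 21 had Klrg1 alone and 13 had Klra7 alone. Pairs were seen in 14 cells (Klra7 with Klrc1), 12 cells (Klrc1 with Klrg1) and 7 cells (Klra7 with Klrg1), and 9 cells had all 3. In 60 cells none of the 3 was detected (32.3%, 25.6 to 39.5), at a median of 2696 UMIs.

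For each pair, the intervals of the share with one receptor overlapped between cells with and without the other. Klrc1 was detected in 53.5% of cells with Klra7 (37.6 to 68.8) and in 43.4% of cells without it (35.1 to 51.9). It was detected in 42.9% of cells with Klrg1 (28.8 to 57.8) and in 46.7% of cells without it (38.1 to 55.4). Klrg1 was detected in 37.2% of cells with Klra7 (22.98 to 53.3) and in 23.1% of cells without it (16.4 to 30.9). Thinned to 1000 UMIs, the last pair stood at 15.0% and 15.5%, and in the cells with little microglial RNA it stood at 40.9% (20.7 to 63.7) and 32.0% (21.7 to 43.8). Klrd1, without which NKG2A does not reach the surface, was found in 76 of the 85 cells with Klrc1 (89.4%) and in 90 of the 101 cells without it (89.1%).

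**Figure D4:**
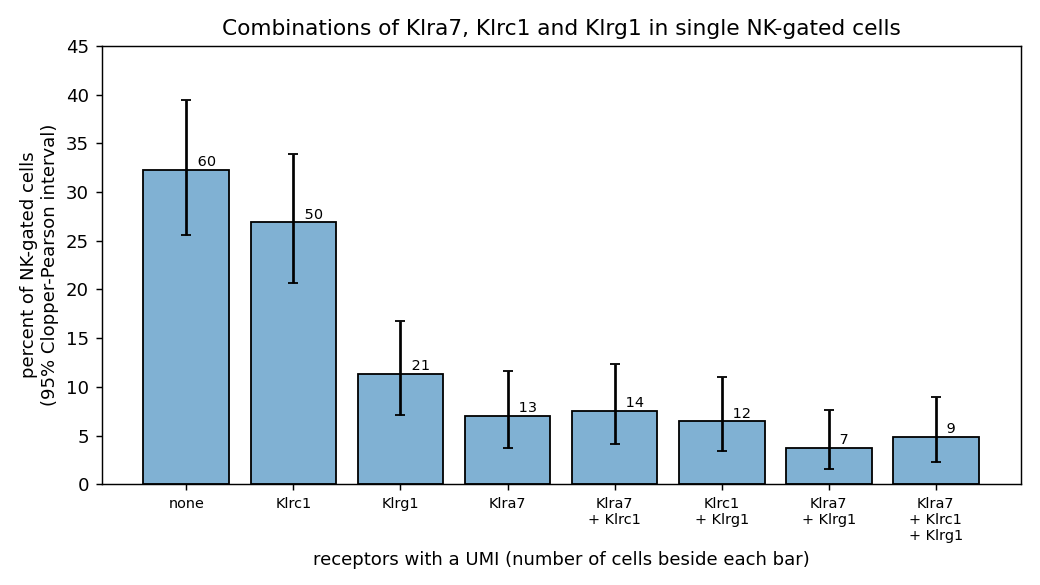
Percent of the 186 NK-gated cells with each combination of Klra7, Klrc1 and Klrg1 UMIs, with 95% Clopper-Pearson intervals and the number of cells beside each bar. Cells with a UMI of none of the 3 (60) and of Klrc1 alone (50) were the most frequent, and 9 cells had all 3. A receptor without a UMI can have been missed.

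Other Ly49 and lectin-like genes widened this mix. Of 33 further NK receptor genes in the matrix, 25 reached 10 CPM in either gate and 21 of these were at least 4 times higher in NK-gated than in microglia-gated cells (5.96% of all genes). All 21 were under 10 CPM in microglia-gated cells and so were tested only through their NK level. This largely fixed their call, so the count is a description and not support. Klra3, another Ly49 gene, was at 410 CPM (360 to 465) in 74 cells, above Klra7, and the activating NKG2 chain Klrc2 was at 185 CPM. Fcgr3, Lag3, Havcr2 and Il15ra, which microglia also express, were the 4 that did not pass. Klra6 and Klrc3 had no UMI, Klra8 had 1, and Tigit had none. Ly49 genes are near-identical copies whose reads may be split or lost in counting, and CB17 mice are related to BALB/c, whose Ly49 cluster differs in gene content from that of the C57BL/6 reference. Levels of single Klra genes, Klra7 included, are therefore uncertain. Whether strain differences from the reference also affect the other lectin-like genes, Klrb1c included, was not tested.

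The signalling chains fell in 2 groups. Of 13 adaptors and kinases, 7 passed the same 4-fold rule, against 5.96% of all genes. Of these 7, only Hcst reached 10 CPM in microglia-gated cells, and the others were tested only through their NK level. Among the 7 were the NKG2D adaptor Hcst (367 CPM against 12.1), the CD3 zeta chain Cd247 (71.8 against 0.132), Zap70 (87.1 against 0.187) and Lck (388 against 2.20). Tyrobp (1919 against 1965 CPM) and Fcer1g (1903 against 1659), adaptors that microglial receptors also use, did not, nor did Syk, Vav1, Plcg2 and, at 2.87-fold, Sh2d1b1. None of the 3 phosphatases of inhibitory signalling passed, a count near the background and thus not a result about them. Ptpn6 was at 238 CPM against 285 in microglia-gated cells, and at 154 CPM in NK-gated cells of little microglial RNA. On the ligand side, 0 of the 11 genes tested passed in either direction, where 5.96% of all genes were higher and 0.762% lower, so that the count is near the background and not a result about the ligands. In microglia-gated cells the Qa-1 gene H2-T23, the MHC molecule that NKG2A recognises, was at 141 CPM, the Ly49 ligands H2-D1 and H2-K1 at 1795 and 535 CPM, and the NKG2D ligand genes H60b and Ulbp1 at 21.1 and 3.31 CPM. H2-D1 was at 4772 CPM in NK-gated cells themselves, 2.66 times the microglial level. The human graft cells were not measured, as reads were aligned to mouse.

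Of the immature NK list 6 of 8 genes tested passed the 4-fold rule over microglia-gated cells, and of the mature list 6 of 11, against 5.96% of all genes. Cx3cr1, of the mature list, was at 960 CPM in all NK-gated cells but at 12.3 CPM in those of little microglial RNA. Kit had no UMI.

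Cells with and without Klrg1 were set side by side on the same lists. The 49 cells with a Klrg1 UMI had 778 CPM (637 to 942) summed over 9 genes of immature NK cells, against 1474 (1364 to 1591) in the 137 cells without. Xcl1, the highest of that list, made up most of the gap, at 59.3 CPM (25.6 to 117) against 626 (555 to 704). The mature list without Klrg1 itself summed to 4210 CPM (3871 to 4571) against 3814 (3636 to 3999), with overlapping intervals, and 6 of its 10 genes were higher with Klrg1. The 4 others were Itgam (215 against 309 CPM), Cx3cr1 (704 against 1037), Irf8 (1090 against 1110) and Prdm1 (14.8 against 22.2). Among the 6, the egress receptor S1pr5 was at 163 CPM (102 to 247) against 53.3 (34.1 to 79.3) and the protease Cma1 at 422 CPM (320 to 547) against 189 (151 to 233). The chemokine Ccl5 was at 21710 against 10060 CPM. S1pr5, Cma1 and Ccl5 were singled out after their values were seen. The share of all genes higher with Klrg1 was not computed, so the 6 of 10 is not a result about the mature list. Genes of neither list were higher with Klrg1 too, such as Ncr1 (1608 against 1070 CPM) and the gate gene Gzma (10570 against 5932 CPM). Of the other members, Itgam alone was lower.

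These cells also differed in microglial RNA, which was a median of 0.310% of UMIs with Klrg1 and 1.86% without. Within the 97 cells of little microglial RNA, Xcl1 was at 53.9 against 768 CPM, Cma1 at 664 against 318 and Ccl5 at 36641 against 23758, each without overlap of intervals, while S1pr5 was at 269 (151 to 444) against 112 (58.0 to 196). The values by suffix are of all NK-gated cells, so the difference in microglial RNA remains in them. Ccl5 was higher with Klrg1 in each of suffixes 2, 4 and 6, without overlap of intervals in any. S1pr5 was at 280 against 67.6, 114 against 42.7 and 152 against 55.7 CPM there, with overlapping intervals in all 3. Cma1 was apart in suffix 6, at 406 (278 to 573) against 146 CPM (101 to 203), and overlapped in suffixes 2 and 4. Xcl1 was apart in suffix 6 as well, at 25.4 (3.08 to 91.7) against 1097 CPM (966 to 1239), but stood at 114 against 121 CPM in suffix 4 and 120 against 236 CPM in suffix 2, both with overlapping intervals. In suffix 6, 31 of the 68 cells without Klrg1 had Xcl1, of whose 256 UMIs 3 cells held 129. The lower Xcl1 level with Klrg1 was thus seen beyond counting error in 1 library.

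**Figure D5:**
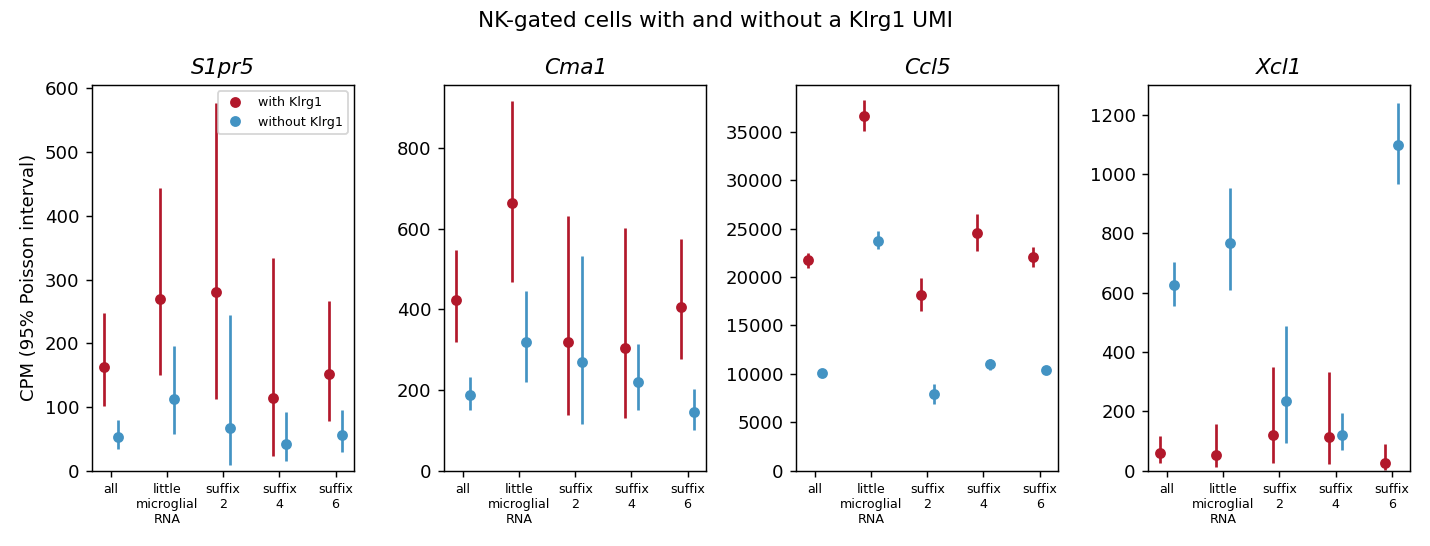
CPM of S1pr5, Cma1, Ccl5 and Xcl1 in NK-gated cells with and without a Klrg1 UMI, over all cells, in the 97 cells of little microglial RNA and in suffixes 2, 4 and 6, with 95% Poisson intervals. Ccl5 was higher with Klrg1 in all 5 sets, and the gap in Xcl1 within suffixes was seen in suffix 6 at 25.4 against 1097 CPM.

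Klra7 and Klrc1 split the lists differently. The immature list summed to 1276 CPM (1097 to 1475) in the 43 cells with Klra7 and 1326 (1221 to 1438) in those without. With Klrc1 both lists were higher, the immature at 1477 (1339 to 1626) against 1160 CPM (1042 to 1288) and the mature at 4471 (4228 to 4724) against 3622 CPM (3411 to 3844). Xcl1 was at 624 against 374 CPM, but in cells of little microglial RNA at 318 (208 to 466) against 730 (556 to 942), the opposite direction. Of the mature list 5 of 11 genes were higher with Klrc1 and the rest were lower. The largest gaps upward were in Gzmb and in Irf8, the latter at 1301 CPM (1172 to 1441) against 921 (816 to 1036). The share of all genes higher with Klrc1 was not computed, so neither the count nor the sums are a result about the lists. List sums in cells of little microglial RNA are not given. With Klrc1, granzyme B (Gzmb) was at 1030 CPM (915 to 1155) against 500 (424 to 587), and at 1823 against 916 in cells of little microglial RNA, but at 617 against 627 CPM in suffix 4. Gzmb and Irf8 were singled out after their values were seen. By the markers of the classical stages, 15 cells had Cd27 without Itgam, 13 had both, 66 had Itgam without Cd27 and 92 had neither. In the 97 cells of little microglial RNA these were 13, 2, 16 and 66, so most could not be placed. Of the 16 cells there with Itgam alone, 8 had Klrg1, and of the 13 with Cd27 alone, 3 did, with wide intervals (24.7 to 75.3% and 5.04 to 53.8%).

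Receptor-bearing cells were also found outside the NK gate. In all, 57 other cells had at least 2 of the 9 receptors, 26 of them microglia-gated, 23 in no gate, 4 monocyte-gated, 3 dendritic cell-gated and 1 ambiguous. Of these 57 cells, 46 had 1 gate gene, nearly always Nkg7 (43 cells). The 23 ungated cells came from 5 suffixes (12 from suffix 4 and 8 from suffix 6), had a median of 2503 UMIs and only 0.172% on microglial genes. They were chosen by their receptors, so no receptor level in them is a finding, and their levels are set beside those of the 97 NK-gated cells of little microglial RNA as a description only. Ncr1, seen in 21 of the 23, was at 2006 CPM (1676 to 2382) against 2067 (1852 to 2301). Klra7 and Itgam had no UMI (limit for a count of 0, 46.3 CPM), against 252 and 117 CPM. Klrg1 had 1 UMI (15.4 CPM against 326) and Klre1 had 4 (61.7 against 486).

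In these 23 cells, selected in part by the lack of gate genes, Prf1 was at 0 and Gzma at 61.7 CPM against 14311. The chemokine receptor Cxcr6, on the list of type 1 innate lymphoid cells (ILC1), was at 417 CPM (275 to 606) against 18.5 (3.81 to 53.9), Xcl1 at 1250 against 523, Cd7 at 988 against 332 and Emb at 926 against 265, each without overlap of intervals. Of the rest of the ILC1 list, Tmem176b was at 447 against 67.7 CPM and Tmem176a at 525 against 49.2, both without overlap. Higher with overlap, on few UMIs, were Itga1 (61.7 against 36.9 CPM), Il7r (77.2 against 18.5), Cd200r1 (61.7 against 0) and Tnfsf10 (46.3 against 6.15). Eomes was lower, at 170 (84.7 to 304) against 363 (276 to 468), also with overlap. S1pr5 and Cma1 had no UMI. Cd7, Emb and the ILC1 genes given here were named after their values were seen, and the cells were given no type.

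The genes whose level ran most alike across gates and suffixes were found over 23 profiles with at least 20 cells each, of which 3 were NK-gated, among 4901 genes of at least 50 CPM in some gate. By Pearson's r of log2(CPM + 1), Ncr1 was most like Il2rb (0.976) and Ifng (0.953), Klrk1 like Ms4a4b (0.988) and Dok2 (0.952), Klrd1 like Ms4a4b (0.923) and Dusp5 (0.902), and Klrb1c like Fasl (0.962) and Gimap8 (0.955). Klrc1 was most like Rab27b (0.967) and Ifng (0.963), and Klre1 like Rab27b (0.977) and the gate gene Prf1 (0.964). Klra7 was most like Serpinb9b (0.998) and Prf1 (0.988), Klrg1 like Klri2 (0.986) and Gzmb (0.965), and Itga2 like Slamf7 (0.818) and Klrc2 (0.810). Itgam was most like Bin2 (0.935) and Son (0.868). Profiles share libraries, and with 3 NK profiles any gene high in NK cells scores high.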

How the data were processed

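The matrix deposited by the authors holds raw counts of UMIs, whole numbers per gene and barcode. They were made by the authors with Cell Ranger 3.1 from 10x 3′ libraries (v2 chemistry) aligned to mm10, and 6 libraries were joined in 1 matrix of 40411 barcodes and 105560763 UMIs. The submitters' processing notes also name Seurat 3.1.5. Libraries held 9745192 to 24393841 UMIs. Which libraries shared a sequencing kit is not given in the sources used here.

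Following the study's filters, a barcode was kept if it had more than 200 genes, no more than 2500, and mitochondrial transcripts below 5% of its UMIs. Cells were gated on markers with raw UMIs. A cell that passed the NK gate was kept as NK-gated whatever other gate it passed, monocytes needed both gate genes, and granulocytes at least 2 of Ngp, Camp and S100a9. CPM were summed UMIs over summed totals. The 4-fold rule used genes of at least 10 CPM in either gate, with a count of 0 set to 3 counts. Thinning drew 500 or 1000 UMIs per cell without replacement, and 186 and 175 NK-gated cells had that depth. Groups were taken from the sample labels alone. Barcode numbers per suffix equal cell numbers that the paper's sequencing metrics list by group, but suffixes were not assigned from such counts. The matrix was therefore handled as 1 pooled sample, with no test between groups and no p-values. Members, gates and gene lists were chosen with earlier results of these data known. Genes named are the members, gate genes, the highest and lowest of each list or those against it, and the 2 most alike per member. Others are named as chosen later. The ratio step was tested on simulated data. Python 3.11.15 with numpy 2.4.6, scipy 1.17.1, pandas 2.3.3 and matplotlib 3.10.9 was used. Alternatives were other gates, no filter, other depths and folds, cells with at most 1% microglial RNA and each suffix left out.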

Additional observations from a re-analysis of the deposited data

Results flagged for a closer look

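The filters that keep barcodes with at most 2500 genes and under 5% mitochondrial counts also removed cells that pass the NK gate. These are outside the values of the report. Of the 1660 removed barcodes, 84 were NK-gated (5.06%, exact binomial 95% interval 4.06 to 6.23%), against 0.480% of the kept barcodes and above the 0.181% that a count of 0 would allow. There is no control sample for this share. Of the 84, 79 had over 2500 genes, and all 79 also passed the microglia gate. The paper took barcodes with over 2500 genes to be doublets and left them out. The 84 held a median of 10184 UMIs and 6.06% microglial RNA. Ncr1 was seen in 74 of the 84 at 362 CPM, Klrd1 in 76 at 272 CPM, Klrc1 in 39 at 103 CPM, Klra7 in 26 at 56.4 CPM, Klrg1 in 13 at 21.4 CPM and Itgam in 81 at 488 CPM.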

How the results depend on the processing

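All values are of 1 pooled matrix with counting error only, and 3 of 6 suffixes held under 20 NK-gated cells. The 9 genes at least 4 times higher than in microglia-gated cells were 9 under every alternative tried for that count, among them 2-fold and 10-fold rules and each suffix left out. The number of NK-gated cells, 186, was 270 with no barcode filter, 132 with all 3 gate genes, 92 without cells that passed another gate, 97 with at most 1% microglial RNA, and 94 to 183 with each suffix left out, lowest without suffix 6. The summed level of the 10 genes, 3916 CPM, was 2540 with no filter, 4120 with all 3 gate genes, 6980 without cells that passed another gate, 7057 with at most 1% microglial RNA and 5141 with equal weight per cell. The share of NK-gated cells with any of the 9 receptors, 83.3% at 500 UMIs, was 99.5% unthinned, 93.1% at 1000 UMIs and 97.9% with at most 1% microglial RNA. The share with at least 2 of Klra7, Klrc1 and Klrg1, 22.6%, was 8.57% at 1000 UMIs. The alternatives without shared barcodes and, for the shares, with all 3 gate genes were added after the data were seen, and of these the first moved 0 of 23 single values. Of 260 single values under the alternatives, 69 left the interval of the value reported. No paired analysis was possible because the results come from no test: suffixes were not assigned to groups or replicate numbers.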
